A study of Mus musculus with 6 samples.

Results

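The genes described here act in the programmed breakdown of injured axons. They are 10 genes taken by symbol from the 38926 gene symbols of the deposited tables: Sarm1, Nmnat1, Nmnat2, Nmnat3, Nampt, Nadsyn1, Mycbp2, Map3k12, Map3k13 and Mapk10. The rule uses no measured value, and all 10 had enough reads to be tested. The tissue was whole lumbar sensory ganglia of levels L3 to L5, taken on the side of the treated paw from wild-type female C57BL/6 mice aged 8 to 10 weeks. The 3 vehicle pools and the 3 vincristine pools each combined ganglia of 4 animals and count as separate biological replicates. The vincristine animals received the drug into the paw to a cumulative dose of 40 µg, per the labels, whereas 10 µg stands in the table names. How long after dosing the ganglia were taken is not stated in the sources used. The drug, a vinca alkaloid, binds tubulin and is known to cause sensory neuropathy.

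In healthy axons the enzyme NMNAT2 turns nicotinamide mononucleotide into NAD. When axonal transport fails, this short-lived protein is lost, the precursor builds up and NAD falls, and both changes release SARM1, an enzyme that destroys NAD and so breaks the axon down. In parallel, the kinases DLK and LZK signal axon damage through the JNK kinases to the nucleus of the sensory neuron, where c-Jun, ATF3 and ATF4 change transcription. Most of this switching is known to happen on proteins, and the data here measure only the messenger RNA of cell bodies and neighbouring cells in the ganglion, not of the axon.

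Reads counted in genes ranged from 12374331 to 26346304 per library, with the smallest total in vincristine replicate 1. That library stood apart from the other 5. It had 24.8% of tallied alignments outside annotated genes against 14.8% to 17.0% elsewhere, and the first principal component, with 61.4% of the variance, set it at one end. All 15 pan-neuronal markers were tested and none was at 0 reads in any library. Their summed level was 9199 to 12088 CPM (counts scaled per library by total and TMM factor) in vehicle, 4428 CPM in vincristine replicate 1, and 9399 and 11433 CPM in vincristine replicates 2 and 3. Summed levels of 13 neutrophil markers were 856 to 1485 CPM in vehicle and 8163, 2695 and 3076 CPM in vincristine replicates 1, 2 and 3, and those of 8 red cell markers 834 to 1140 CPM against 3931, 1686 and 1982 CPM. The 12 macrophage markers summed to 550 to 621 CPM in vehicle and 942, 679 and 692 CPM in vincristine, and the summed satellite glia markers spanned 2681 to 2962 and 2695 to 2994 CPM. In bulk tissue, fewer cells of a type and less RNA per cell cannot be told apart.

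None of the 10 genes differed between vincristine and vehicle by edgeR's quasi-likelihood test at an adjusted p under 0.05, the rule by which 0.359% of the 16706 genes tested were called. None passed by DESeq2 (3.41% of genes) or limma-voom (0.251%), and none had an unadjusted p under 0.05 by edgeR (11.4% of genes). For each of the 10 the ranges of CPM in the 2 groups overlapped, whereas 21.0% of all genes had groups that did not overlap. The fitted log2 fold changes ran from -0.50 for Mapk10 to 0.57 for Nmnat3, 7 negative and 3 positive. Their median was -0.08, beside -0.0033 over all genes tested. A missed threshold does not show that levels were equal, and the 95% intervals given for each gene are the sizes of change that these 6 libraries leave possible.

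**Figure D1:**
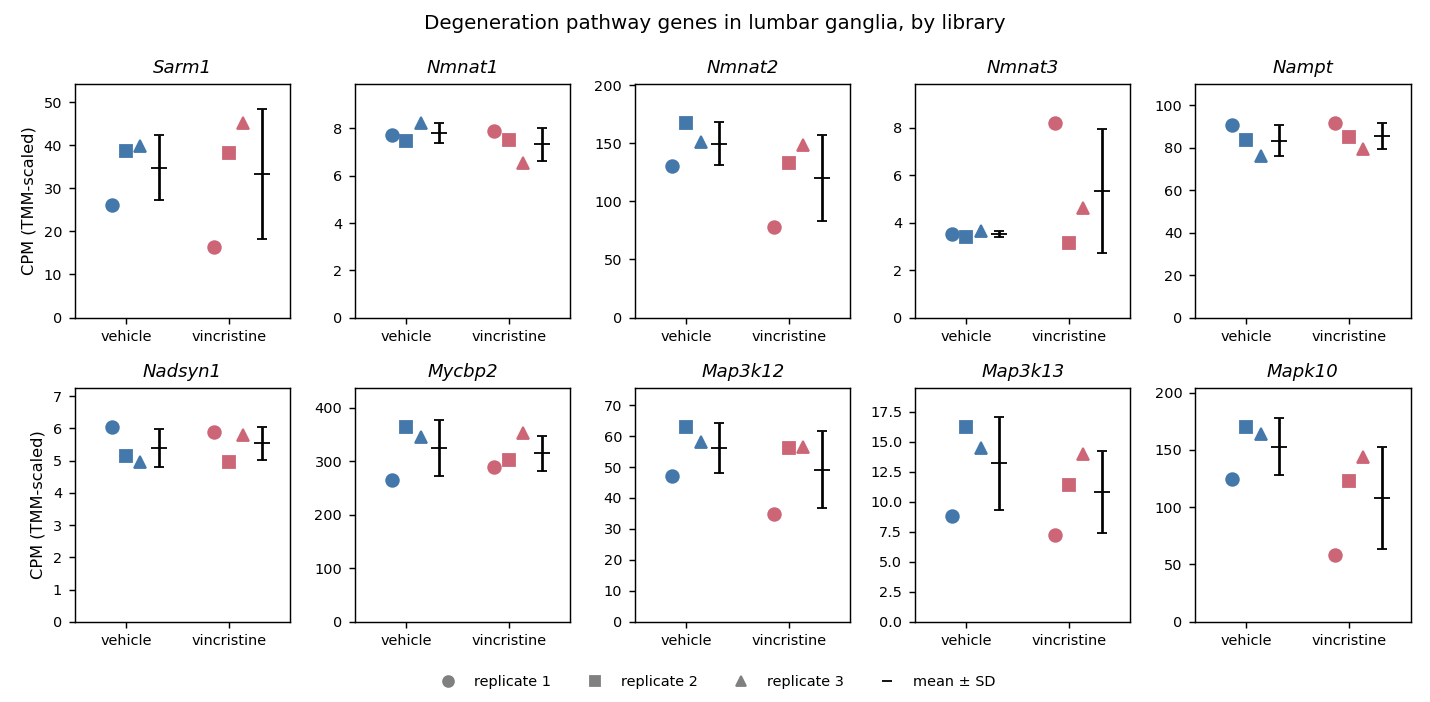
Level of each of the 10 genes in CPM after TMM scaling (vertical axes from 0) in the 3 vehicle and 3 vincristine libraries, with a separate symbol for each replicate number and the mean ± SD as a bar beside the points. In every panel the ranges overlap, and vincristine replicate 1 is the lowest point for Sarm1, Nmnat2, Map3k12, Map3k13 and Mapk10 and the highest for Nmnat3 and Nampt.

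Per kilobase of exon, the scale on which genes can be compared, the order of the 10 in vehicle was led by Nmnat2 at 32.4 ± 4.03 CPM per kilobase (SD, n = 3). Mycbp2 followed at 21.4 ± 3.44 and Nampt at 18.4 ± 1.59 CPM per kilobase, a pair whose ranges over the 3 vehicle libraries overlapped. Mapk10 (14.9 ± 2.41), Map3k12 (9.80 ± 1.42) and Sarm1 (6.74 ± 1.46 CPM per kilobase) came next. Nmnat1 at 2.73 ± 0.141, Nadsyn1 at 2.04 ± 0.221, Map3k13 at 1.51 ± 0.444 and Nmnat3 at 1.42 ± 0.0529 CPM per kilobase closed the order. The ranges of Map3k13 and Nmnat3 overlapped, and those of all other neighbours in the order did not, though the lowest Nadsyn1 library (1.87) and the highest Map3k13 library (1.87 CPM per kilobase) nearly met.

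Sarm1 encodes the NAD-cleaving executor of axon breakdown. It spans chromosome 11 from 78472330 to 78497754 of GRCm38 (GENCODE M21). It was at 26.2, 38.6 and 39.7 CPM in vehicle replicates 1, 2 and 3 and at 16.4, 38.2 and 45.2 CPM in vincristine replicates 1, 2 and 3. The vincristine group held both the lowest and the highest library. The log2 fold change was -0.06 ± 0.35 (SE), with a 95% interval of -0.89 to 0.78 (edgeR adjusted p = 0.967). Without vincristine replicate 1 it was 0.26, with an interval of -0.16 to 0.69 (edgeR adjusted p = 0.621), with the sign turned, and without vincristine replicate 3 it was -0.35.

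The 3 NMNAT enzymes make NAD in different compartments: NMNAT1 in the nucleus, NMNAT2 in the cytoplasm and on axonal vesicles, and NMNAT3 in mitochondria and in red blood cells. Nmnat2 (chromosome 1, 152954993 to 153119261) was at 131, 168 and 151 CPM in vehicle and at 77.9, 133 and 148 CPM in vincristine. Its lowest library was vincristine replicate 1, and the other vincristine libraries lay within the vehicle range. For Nmnat2 the log2 fold change was -0.32 ± 0.24 (interval -0.89 to 0.25, edgeR adjusted p = 0.658), and without vincristine replicate 1 it was -0.09 (interval -0.38 to 0.20). Leaving out vincristine replicate 3 instead gave -0.51.

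Nmnat1 (chromosome 4, 149467572 to 149485202) varied little, at 7.73, 7.45 and 8.25 CPM in vehicle and 7.90, 7.52 and 6.55 CPM in vincristine. Its log2 fold change was -0.10 ± 0.15 (interval -0.44 to 0.25, edgeR adjusted p = 0.835). Nmnat3 (chromosome 9, 98287435 to 98420438) was at 3.53, 3.39 and 3.65 CPM in vehicle and at 8.21, 3.13 and 4.62 CPM in vincristine, from 60 to 120 reads per library. A single library was far above the rest, vincristine replicate 1, which also had the highest summed red cell markers; the part of red cell RNA in the Nmnat3 value was not tested. For Nmnat3 the log2 fold change was 0.57 ± 0.34 (interval -0.23 to 1.38, edgeR adjusted p = 0.581) and 0.15 without vincristine replicate 1, but 0.86 without vincristine replicate 2.

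By reads per kilobase, Nmnat2 made up 88.5 ± 1.47% of the NMNAT messenger RNA in vehicle (SD, n = 3), against 7.53 ± 0.964% for Nmnat1 and 3.93 ± 0.505% for Nmnat3. The Nmnat2 share was 73.5%, 88.1% and 88.5% in vincristine replicates 1, 2 and 3. In replicates 2 and 3 it lay in the vehicle range of 87.3% to 90.1%. In vincristine replicate 1 the Nmnat3 share was 14.5%, where the other 5 libraries were between 3.40% and 5.15%. With merged exons of the comprehensive rather than the basic GENCODE M21 set, the vehicle means were 88.7% for Nmnat2, 8.89% for Nmnat1 and 2.43% for Nmnat3.

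**Figure D2:**
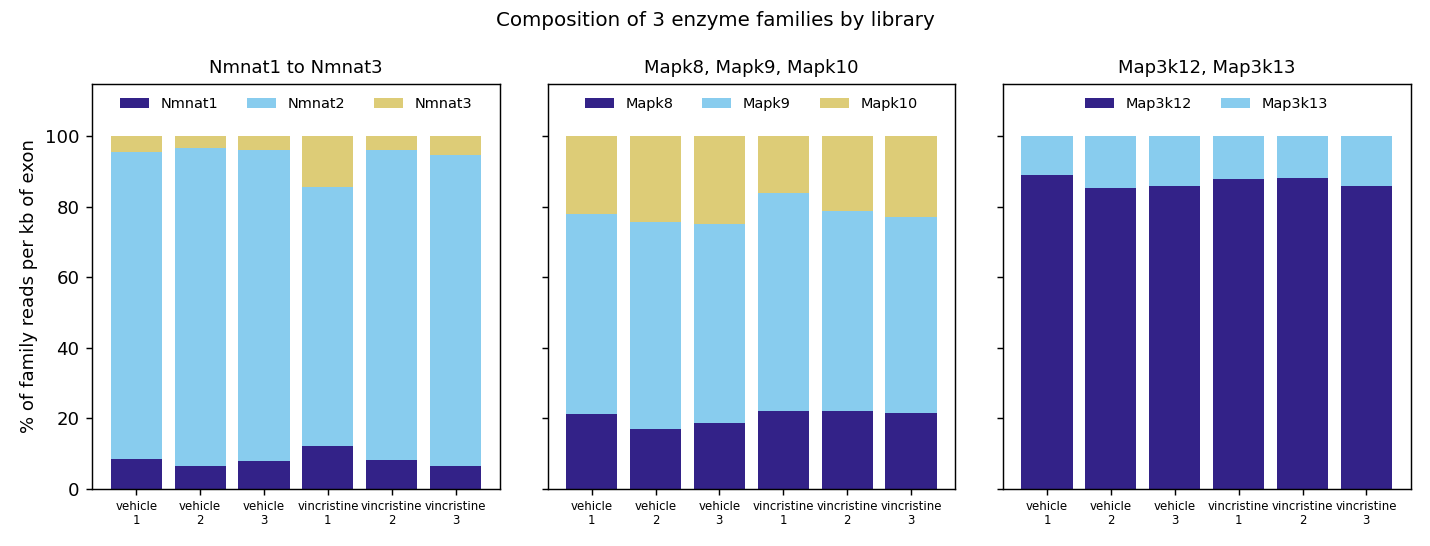
Stacked bars of each library's reads per kilobase of exon as a percent of its family sum, for the NMNAT enzymes, the JNK kinases and the kinases DLK (Map3k12) and LZK (Map3k13). Nmnat2, Mapk9 and Map3k12 are the largest segments in all 6 libraries, and the NMNAT bar of vincristine replicate 1, with Nmnat2 at 73.5%, differs from the others.

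Nampt and Nadsyn1 supply NAD upstream of and beside these enzymes. Nampt (chromosome 12, 32819545 to 32853349) encodes the enzyme that makes nicotinamide mononucleotide from nicotinamide, the step that limits NAD salvage. It was at 90.6, 83.4 and 76.2 CPM in vehicle and at 91.8, 85.0 and 79.6 CPM in vincristine, and each vincristine library was close to a vehicle library. Its log2 fold change of 0.04 ± 0.11 had the narrowest interval of the 10 genes, -0.23 to 0.30 (edgeR adjusted p = 0.931). Nampt is also known to be expressed in neutrophils. The libraries with the most neutrophil markers in each group, vincristine replicate 1 (8163 CPM) and vehicle replicate 1 (1485 CPM), were also those with the most Nampt, and the part of neutrophil RNA in its level was not tested. Nadsyn1 (chromosome 7, 143795584 to 143822849), which encodes NAD synthetase, the last step of the routes from nicotinic acid and tryptophan, was at 6.05, 5.16 and 4.95 CPM in vehicle and 5.88, 4.96 and 5.78 CPM in vincristine. Its log2 fold change was 0.04 ± 0.17 (interval -0.36 to 0.44, edgeR adjusted p = 0.95), on 76 to 150 reads per library.

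Mycbp2 (chromosome 14, 103113411 to 103346814) encodes PHR1, the large ubiquitin ligase known to mark both NMNAT2 and DLK for degradation. It was at 266, 365 and 346 CPM in vehicle and at 289, 303 and 352 CPM in vincristine, so that the vincristine libraries all lay inside the vehicle range. For Mycbp2 the log2 fold change was -0.05 ± 0.17 (interval -0.45 to 0.35, edgeR adjusted p = 0.942). The lowest of the 6 libraries for Mycbp2 was vehicle replicate 1, not the vincristine library with few neuronal reads.

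Map3k12 encodes DLK, the kinase that senses cytoskeletal damage in axons, and Map3k13 its relative LZK. Map3k12 (chromosome 15, 102497646 to 102517064) was at 47.2, 63.0 and 58.1 CPM in vehicle and at 34.7, 56.1 and 56.6 CPM in vincristine. Again vincristine replicate 1 was lowest and the others were within the vehicle range. For Map3k12 the log2 fold change was -0.19 ± 0.21 (interval -0.68 to 0.30, edgeR adjusted p = 0.765) and 0.0058 without vincristine replicate 1 (interval -0.29 to 0.30), but -0.31 without vincristine replicate 3. In GENCODE M21, 27.5% of the Map3k12 exon length is shared with Pcbp2 on the opposite strand, and no source used here states whether reads were counted by strand. Pcbp2 averaged 78.2 ± 9.28 CPM over vehicle libraries and 86.1 ± 19.2 CPM over vincristine libraries (SD, n = 3 each).

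Map3k13 (chromosome 16, 21794346 to 21933439) was at 8.85, 16.3 and 14.5 CPM in vehicle and at 7.2, 11.4 and 13.9 CPM in vincristine. The first replicate of each group was its lowest. For Map3k13 the log2 fold change was -0.27 ± 0.30 (interval -0.98 to 0.43, edgeR adjusted p = 0.764), -0.06 without vincristine replicate 1 and -0.51 without vincristine replicate 3. DLK supplied 86.8 ± 1.93% of the summed reads per kilobase of the pair in vehicle and 87.4 ± 1.19% in vincristine (SD, n = 3 each), a difference below the spread between libraries. The share itself depends on the exon lengths used, and with comprehensive exons the DLK mean in vehicle was 80.8%.

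Mapk10 (chromosome 5, 102907948 to 103211334) encodes JNK3, the JNK kinase known to be largely restricted to neurons and to act below DLK in axon injury. It was at 124, 170 and 164 CPM in vehicle and at 58.4, 123 and 144 CPM in vincristine. Vincristine replicates 1 and 2 lay below every vehicle library and replicate 3 within the vehicle range. The log2 fold change, the most negative of the 10 genes, was -0.50 ± 0.32 (interval -1.24 to 0.25, edgeR adjusted p = 0.603). It was -0.20 without vincristine replicate 1 (interval -0.55 to 0.15, edgeR adjusted p = 0.652) and -0.76 without vincristine replicate 3 (edgeR adjusted p = 0.359).

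The other JNK genes gave the comparison within the family. Mapk8 (JNK1) averaged 68.6 ± 1.26 CPM over vehicle and 64.9 ± 16.5 CPM over vincristine libraries, and Mapk9 (JNK2) at 171 ± 21.7 and 140 ± 30.5 CPM (SD, n = 3 each). Their log2 fold changes were -0.08 ± 0.19 and -0.29 ± 0.19 (edgeR adjusted p = 0.906 and 0.615). The Mapk10 share of JNK reads per kilobase was 22.0%, 24.2% and 24.8% in vehicle and 15.9%, 21.2% and 22.8% in vincristine. The ranges overlapped by 1 vincristine library, and with 3 libraries against 3 an exact permutation test cannot go below 0.10, so no test was made of this share. Mapk9 was the largest part in each library, at 55.8% to 61.9%. Comprehensive exons gave other vehicle means, 30.5% for Mapk10, 56.1% for Mapk9 and 13.5% for Mapk8, against 23.7%, 57.4% and 19.0% with basic exons.

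**Figure D3:**
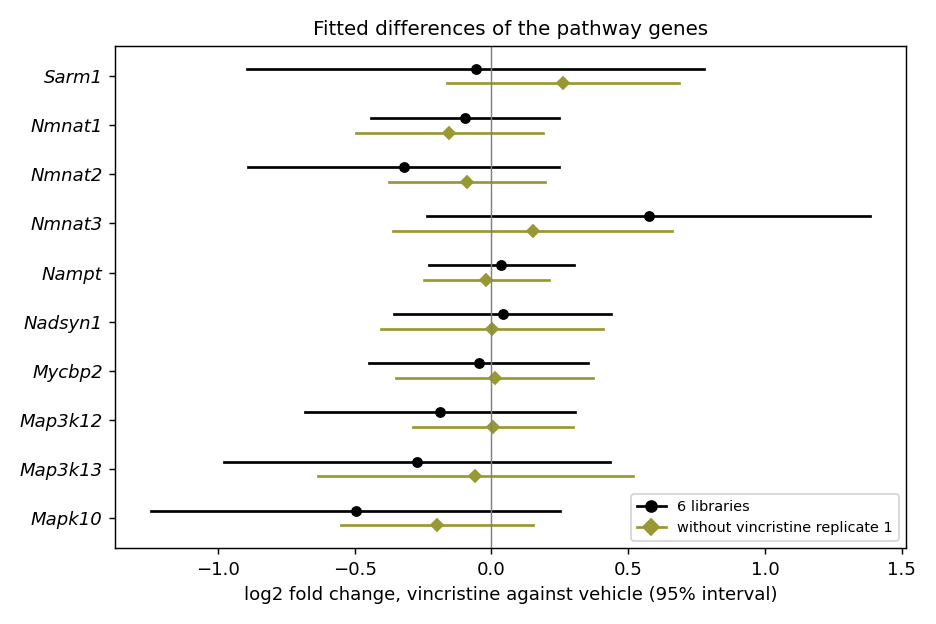
Log2 fold change of vincristine against vehicle for the 10 genes with its 95% interval from edgeR's fit, over all 6 libraries (circles) and without vincristine replicate 1 (diamonds). All 20 intervals include 0, and without that library the values run from -0.20 for Mapk10 to 0.26 for Sarm1.

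The genes did not move alike in vincristine replicate 1, the library with the lowest neuronal markers. Against the vehicle mean, its log2 CPM was lower by 1.37 for Mapk10, 1.06 for Sarm1, 0.94 for Nmnat2, 0.83 for Map3k13 and 0.68 for Map3k12. Each of the 15 neuron markers was likewise set against its own vehicle mean, and the median of these differences was -1.31. By contrast Mycbp2 was lower by 0.16, Nmnat1 was higher by 0.02, Nadsyn1 by 0.13, Nampt by 0.14 and Nmnat3 by 1.22. In vincristine replicates 2 and 3 the 10 genes stayed between -0.30 and 0.40 of the vehicle mean, and the median marker difference was -0.17 and 0.05. The part of neuronal RNA content in the lower values was not tested.

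The genes were also taken relative to the neuron markers, as log2 CPM minus the median log2 CPM of the markers in the same library. The vehicle mean was set to 0. This median of levels is not the median of differences given above. With the median of levels, all 10 genes were above the vehicle mean in vincristine replicate 1, by 0.09 for Mapk10 up to 2.68 for Nmnat3. On this scale Sarm1 was at -0.08, -0.06 and 0.13 in vehicle and at 0.40, 0.21 and 0.09 in vincristine. Mapk10 was at 0.03, -0.06 and 0.03 in vehicle and at 0.09, -0.25 and -0.39 in vincristine, where replicates 2 and 3 were the low ones. For each of the 10 genes the groups overlapped on this scale too. The median of marker differences was -0.23, 0.15 and 0.08 in vehicle and -1.31, -0.17 and 0.05 in vincristine. Subtracting it instead changes the overlaps. All vincristine libraries of Sarm1 and Mycbp2 then lay above the vehicle ones. For Mapk10 they all lay below, replicate 1 only just, and replicate 1 was below the vehicle mean. The groups of the other genes overlapped. These values are descriptions without a test, and some neuron markers, such as Nefl and Tubb3, are themselves known to respond to axon injury.

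**Figure D4:**
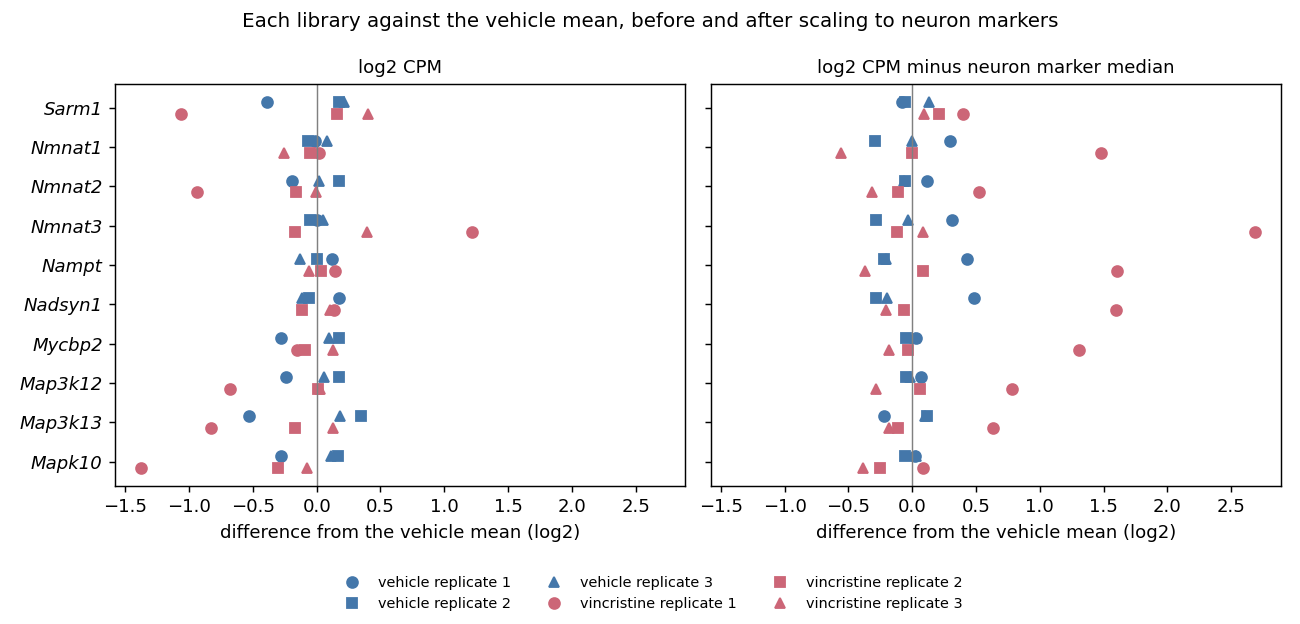
Difference of each library from the vehicle mean (log2) for the 10 genes, as log2 CPM in the left panel and after subtracting the median log2 CPM of 15 pan-neuronal markers in the right panel. Vincristine replicate 1 (red circles) lies left of 0 for 6 genes in the left panel and right of 0 for all 10 in the right panel.

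The neighbouring steps of NAD metabolism were listed from textbook knowledge. Of 20 other genes of NAD synthesis and precursor handling, 16 were tested and none passed by edgeR in either direction (at an unadjusted p below 0.05, 6 were higher, the direction of 8.10% of all genes, and 0 lower, that of 3.27%). Nmrk2, Tdo2, Ido1 and Ido2 had too few reads to be tested. The list median was -0.03. The smallest p was that of Slc25a51, which encodes the carrier that brings NAD into mitochondria. It was at 118, 132 and 130 CPM in vehicle and at 196, 163 and 180 CPM in vincristine, with every vincristine library above every vehicle library. Its log2 fold change was 0.50 ± 0.12, past the threshold by DESeq2 (adjusted p = 0.0124) and not by edgeR (adjusted p = 0.193). Over the alternatives of the processing the log2 fold change of Slc25a51 stayed between 0.40 and 0.58. Relative to the median level of the neuron markers its groups overlapped narrowly, with vincristine replicate 3 at 0.200 and vehicle replicate 1 at 0.208. Relative to the median of marker differences they did not overlap, and vincristine was higher. Pnp, a purine nucleoside phosphorylase that can release nicotinamide from its riboside, averaged 20.6 ± 3.31 CPM over vehicle and 37.3 ± 12.1 CPM over vincristine libraries (log2 0.85 ± 0.24, edgeR adjusted p = 0.246). Its vincristine replicates 1, 2 and 3 were at 51.3, 30.9 and 29.7 CPM, and without replicate 1 the log2 fold change was 0.56. A gene model on the same strand shares 23.3% of the Pnp exon length.

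Of 14 other NAD-consuming enzymes, the PARPs, tankyrases, sirtuins, Cd38 and Bst1, none passed by edgeR or DESeq2, and the list median was 0.04. At an unadjusted p below 0.05 by edgeR, 0 were lower (3.27% of all genes) and 1 was higher (8.10%). Parp3, which acts in DNA repair, was that gene and averaged 26.4 ± 1.09 CPM over vehicle and 34.3 ± 1.95 CPM over vincristine libraries (log2 0.38 ± 0.10, edgeR adjusted p = 0.216). It passed only with limma-voom and sample quality weights (adjusted p = 0.0412), an alternative chosen after seeing the data. Sirt7, a nuclear deacylase, had a log2 fold change of 0.32 ± 0.14 (edgeR adjusted p = 0.453).

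PHR1 works with the F-box protein FBXO45 and SKP1, and NMNAT2 and DLK are also set by palmitoylation and by the deubiquitinase USP9X. In this list of 5 genes 0 passed by edgeR or DESeq2, and the median was -0.26. Unadjusted, at an edgeR p below 0.05, 1 was lower (3.27% of all genes) and 0 were higher (8.10%). The gene with the smallest p was Skp1a, the adaptor of many ubiquitin ligases. It was at 946, 929 and 893 CPM in vehicle and at 393, 596 and 728 CPM in vincristine, with all 3 vincristine libraries below the vehicle range. For Skp1a the log2 fold change was -0.69 ± 0.24 (interval -1.25 to -0.13, edgeR adjusted p = 0.349, DESeq2 adjusted p = 0.0694), and -0.48 without vincristine replicate 1. Relative to the neuron markers the groups overlapped. Rae1, a partner of PHR1 in fly neurons, was at 25.4 ± 1.44 and 28.8 ± 0.900 CPM (log2 0.18 ± 0.10, edgeR adjusted p = 0.554).

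The rest of the DLK and JNK cascade was measured by 26 genes, among them the upstream kinases, the scaffolds Mapk8ip1 to Mapk8ip3, the phosphatases and the Jun family. None passed by edgeR, and the median was 0.03. By edgeR's unadjusted p below 0.05, 4 were higher (8.10% of all genes) and 0 were lower (3.27%). Jun, the transcription factor that JNK phosphorylates and that can raise its own transcription, had the smallest p. It was at 69.9, 55.9 and 63.7 CPM in vehicle and at 84.9, 116 and 149 CPM in vincristine, without overlap. For Jun the log2 fold change was 0.89 ± 0.21, past the threshold by DESeq2 (adjusted p = 0.00786) and not by edgeR (adjusted p = 0.193). Without vincristine replicate 1 the edgeR value of Jun was 1.07 (adjusted p = 0.00939). Junb was at 22.4 ± 2.67 and 30.04 ± 2.74 CPM (log2 0.42 ± 0.13, edgeR adjusted p = 0.289).

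Genes known to need DLK for their induction after nerve injury formed a list of 18. Several were known from earlier results of these data to be higher, so the count and the median of the list are no independent evidence. In it 9 genes rose and 0 fell by edgeR over all genes (0.293% and 0.0658% of all genes), 14 rose by DESeq2 (2.92% of all genes), and the list median was 1.93. Atf3, the injury-induced transcription factor, was at 7.95, 7.56 and 6.05 CPM in vehicle and at 129, 196 and 289 CPM in vincristine (log2 4.83 ± 0.33, edgeR adjusted p = 0.00732). Even vincristine replicate 1, with the lowest neuronal markers, was far above all vehicle libraries for Atf3. Sprr1a, a gene of regenerating axons, was nearly unread in vehicle (6, 9 and 2 reads, up to 0.469 CPM) and at 33.4, 49.3 and 81.8 CPM in vincristine. Its fitted rise of 7.50 ± 0.53 on the log2 scale depends on the prior count. On the same scale Ecel1, a neuronal peptidase, rose by 5.93 ± 0.49, and Npy, which encodes neuropeptide Y, by 4.26 ± 0.42. Stmn4, a tubulin-binding stathmin, rose by 2.43 ± 0.27, Chac1, a glutathione-degrading enzyme induced by ATF4, by 1.91 ± 0.23, Gadd45a, a stress gene, by 1.70 ± 0.12, and Csf1, a macrophage growth factor, by 0.94 ± 0.12. The adjusted p of these 7 by edgeR ran from 0.00732 to 0.0308. When vincristine replicate 1 was left out, edgeR called 15 genes of this list and 346 of all genes. It called 4 of this list and 6 of all genes when vincristine replicate 2 was left out, and 0 of this list without any one of vehicle replicates 1, 2 and 3, where edgeR called 0 of all genes and 1462, 1063 and 1409 had an unadjusted p below 0.05.

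**Figure D5:**
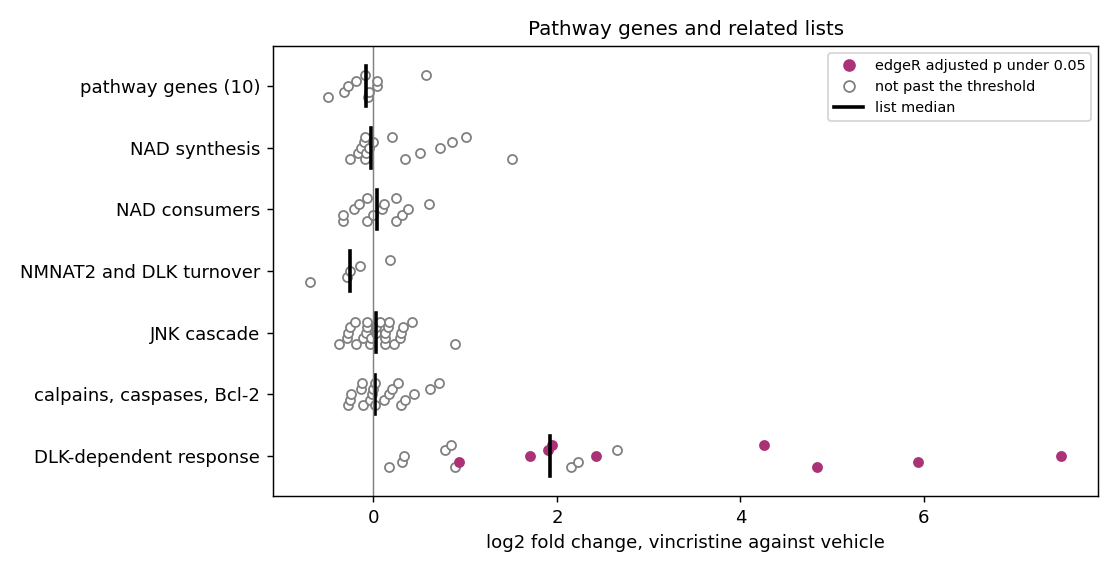
Log2 fold change of vincristine against vehicle for each tested gene of the 10-gene pathway and of 6 related lists, with filled points for edgeR adjusted p under 0.05 and a bar for the list median. Filled points appear only in the DLK-dependent response, whose median is 1.93, while the medians of the other lists lie between -0.26 and 0.04. Several genes of the DLK-dependent list were known beforehand to be higher in these data, so this contrast is no independent evidence.

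Calpains, caspases and Bcl-2 proteins carry out the last steps of axon and neuron breakdown. Of 20 such genes none passed by edgeR, and the median was 0.02. Those with an unadjusted edgeR p below 0.05 were 3 higher (8.10% of all genes) and 0 lower (3.27%). Bcl2l1, which encodes the anti-apoptotic protein BCL-XL, averaged 64.7 ± 3.0 CPM over vehicle and 99.0 ± 17.9 CPM over vincristine libraries (log2 0.61 ± 0.14, DESeq2 adjusted p = 0.0232, edgeR adjusted p = 0.193). Without vincristine replicate 1 the edgeR value of Bcl2l1 was 0.46 (adjusted p = 0.0448). Bcl2l1 was highest in vincristine replicate 1, at 119 CPM, the library with the most red cell markers, and the part of red cell RNA in the value was not tested.

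Promoter letters were compared because c-Jun, ATF3 and ATF4 are the factors at the end of the DLK cascade. RefSeq windows on GRCm38.p6 of 250 bases before the start were found for 9 of the 10 genes. They were searched on both strands for the AP-1 core TGANTCA, the cAMP response element TGACGTCA and the ATF4 composite element TGATGNAA, none of which holds another. The AP-1 core was in 0 of the 9 (7.82% of 27025 genes with a window), the cAMP response element in 1, Mapk10 (1.77%), and the ATF4 element in 1, Map3k13, where it began 69 bases before the start (3.91%). That Map3k13 window, from 21891719 to 21891968, lies inside the annotated gene, which begins at 21794346. Of its bases 85 are in Map3k13 exons, and the 30 bases around the match are all in annotated exon. Of 16 DLK-dependent response genes with a window, 2 held the AP-1 core (Ddit3 and Sprr1a), 0 the cAMP response element and 3 the ATF4 element (Atf3, Chac1 and Hrk). The Atf3 and Hrk windows also lie inside their annotated genes, which begin at 191218039 (minus strand) and 118164648 (plus strand). Only exact letters were searched. Near variants, such as tgacatca in the Jun window and ttacgtca in the Atf3 window, were not counted. A match describes letters and not a bound site. Shown here are 230 bases that end 20 bases before the start, 5′ to 3′ on the gene's strand, with matches in capitals. Sarm1 (chr11:78497775-78498004, minus strand) is shown as the executor of the pathway without a match, Mapk10 (chr5:103211355-103211584, minus strand) as the member with the cAMP response element (found in 1 of its 2 windows), and Atf3 (chr1:191183354-191183583, minus strand, the ATF4 element) and Sprr1a (chr3:92485902-92486131, minus strand, 2 AP-1 cores) as genes that rose.
Sarm1: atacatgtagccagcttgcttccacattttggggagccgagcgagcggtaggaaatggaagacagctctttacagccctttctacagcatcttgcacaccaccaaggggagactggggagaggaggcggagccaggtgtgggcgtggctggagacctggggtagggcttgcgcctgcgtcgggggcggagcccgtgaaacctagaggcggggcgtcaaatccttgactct
Mapk10: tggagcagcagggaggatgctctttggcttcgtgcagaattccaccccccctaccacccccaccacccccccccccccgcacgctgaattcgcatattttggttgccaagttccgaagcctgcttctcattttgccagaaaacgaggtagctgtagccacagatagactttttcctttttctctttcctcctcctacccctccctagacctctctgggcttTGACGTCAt
Atf3: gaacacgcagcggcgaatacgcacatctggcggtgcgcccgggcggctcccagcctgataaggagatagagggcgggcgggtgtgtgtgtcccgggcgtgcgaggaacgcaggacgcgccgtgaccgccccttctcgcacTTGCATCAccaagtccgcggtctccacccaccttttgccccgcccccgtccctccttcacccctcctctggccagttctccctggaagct
Sprr1a: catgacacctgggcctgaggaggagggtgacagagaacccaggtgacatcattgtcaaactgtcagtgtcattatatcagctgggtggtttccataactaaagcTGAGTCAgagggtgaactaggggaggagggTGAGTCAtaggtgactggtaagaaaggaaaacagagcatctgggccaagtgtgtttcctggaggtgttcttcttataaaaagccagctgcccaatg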

How the data were processed

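The authors deposited 1 table of raw counts per pooled sample, reads per gene symbol with no normalization. The submitters' processing notes name STAR, SAMtools, HTSeq and mm10 (GRCm38). Not given in the sources used here are tool versions, annotation and strand handling. Libraries were made with a stranded total RNA kit, per the labels, and read single-end over 75 nucleotides, per the series' design text. Summary lines (14.8% to 24.8% of alignments outside genes, 31.1% to 40.5% not unique) were left out.

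The 10 genes and all gene lists were chosen with earlier results of these data known. Groups and replicate numbers came from the sample titles. The test was edgeR 4.0.16 in R 4.3.3: filterByExpr (minimum count 10), TMM, robust glmQLFit and glmQLFTest on the group, two-sided, Benjamini-Hochberg over 16706 genes, threshold 0.05. The SE is the log2 fold change divided by the square root of F, and 95% intervals use the fit's degrees of freedom. DESeq2 1.42.0, limma-voom 3.58.1, other scalings, filters and thinned counts, a replicate block and leaving out each library were alternatives. The steps were tested on simulated counts. Replicates differed well beyond counting noise (chi-square per degree of freedom at least 12.5). Exon lengths are merged exons of GENCODE M21 basic, except where the comprehensive set is named. Beside the 10 genes, Mapk8 and Mapk9, each list's called genes were named (8 at most) or its 2 with the smallest p. One gene that this rule names is not reported here.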

Additional observations from a re-analysis of the deposited data

How the results depend on the processing

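None of the 10 genes was called under any of the 16 alternatives. An unadjusted p below 0.05 came only for Mapk10 with the replicate block (edgeR adjusted p = 0.212) or without vincristine replicate 3 (edgeR adjusted p = 0.359), and for Nmnat3 without vincristine replicate 2 (edgeR adjusted p = 0.373). Of the 10 genes, signs turned for Sarm1, Nampt, Nadsyn1, Mycbp2 and Map3k12, and beside them for Mapk8, and the cause was not tested. Sarm1 was 0.031, 0.046 and 0.26 without vehicle replicates 2 and 3 and vincristine replicate 1, and 0.11 with sample quality weights, an alternative chosen after seeing the data. Nampt was -0.028 and -0.018 without vehicle replicate 3 and vincristine replicate 1. Nadsyn1 was -0.019 without vehicle replicate 3 and -0.0053 with quality weights. Mycbp2 was 0.056 and 0.011 without vehicle replicate 2 and vincristine replicate 1, Map3k12 0.0058 without vincristine replicate 1, and Mapk8 0.12 without it and 0.066 with quality weights. Leaving out 1 library gave -0.35 to 0.26 for Sarm1, -0.028 to 0.097 for Nampt, -0.019 to 0.13 for Nadsyn1, -0.18 to 0.056 for Mycbp2, -0.31 to 0.0058 for Map3k12 and -0.22 to 0.12 for Mapk8. It gave -0.51 to -0.09 for Nmnat2, 0.15 to 0.86 for Nmnat3, -0.51 to -0.06 for Map3k13 and -0.76 to -0.20 for Mapk10, with no sign turned.

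Over all genes edgeR called 60. DESeq2 called 569, no filter 99, the threshold of 0.1 125 and quality weights 476. Leaving out 1 library gave 0 to 346 (0 without any one vehicle library, where 1462, 1063 and 1409 genes had an unadjusted p under 0.05). In the DLK-dependent response DESeq2 called 14, quality weights 15, and leaving out 1 library gave 0 to 15. DESeq2 called 1 gene of NAD synthesis, 1 of the JNK cascade and 2 of breakdown, whose cause was not tested. Quality weights called 1 NAD consumer, 2 of the JNK cascade and 2 of breakdown, and the threshold of 0.1 called 1 of breakdown. Leaving out 1 library gave 0 to 1 for the JNK cascade, 0 to 2 for breakdown and 0 for the other lists.

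The replicate block gave 261 called genes, with 11 in the DLK-dependent response and none of the 10. Deviations from the group means of same-numbered libraries correlated at 0.50, 0.30 and -0.07 for numbers 1, 2 and 3, so the numbers were not taken as pairs, and vehicle replicate 2 correlated best with vincristine replicate 3 (0.59). Nmnat3, Nadsyn1, Map3k13 and Nmnat1 had 60, 76, 93 and 102 reads in their smallest library, while the largest SE of the 10 genes, 0.35, was that of Sarm1, with at least 212 reads.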

Other observations

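Several genes around the pathway, picked after their values were seen, had vincristine libraries that all lay above the vehicle range without a call by edgeR or DESeq2. Of the 16706 genes tested, called genes included, 1926 had groups without overlap and were higher in vincristine. Another 1589 had groups without overlap and were lower, and in either direction the share was 21.0%. Genes of the related lists that were lower without overlap, and not called, were Slc29a1, Skp1a, Spag9, Bcl2l2 and Cycs. Zak, a mitogen-activated kinase kinase kinase that responds to stalled ribosomes, was at 54.7, 58.4 and 53.2 CPM in vehicle and at 64.3, 74.5 and 69.8 CPM in vincristine (log2 0.33 ± 0.10, edgeR adjusted p = 0.293). Mapk14, which encodes the stress kinase p38 alpha, was at 66.9, 65.6 and 73.5 CPM in vehicle and at 86.3, 79.9 and 85.4 CPM in vincristine (log2 0.29 ± 0.10, edgeR adjusted p = 0.343). Nadk2, the mitochondrial NAD kinase, was at 29.7, 23.9 and 31.4 CPM in vehicle and at 68.6, 36.6 and 36.0 CPM in vincristine, with vincristine replicate 1 far above the rest (log2 0.73 ± 0.27, edgeR adjusted p = 0.373).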
